A study of Ovis aries with 27 samples.

Results

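The genes described here encode proteins that neutrophils store in their granules, together with a protease inhibitor that acts on a neutrophil enzyme: the cathelicidins CATHL1B and CATHL3, lactoferrin (LTF), chitinase 3 like 1 (CHI3L1) and peptidase inhibitor 3 (PI3). They were picked by name after earlier results of the same arrays had been seen, and their probes were found by the gene name, RefSeq accession or description printed in the scanner files. The array carries 7 probes for the 5 genes among 15008 probes in all, and all 7 were among the 12778 probes tested. RNA came from the septum of the heart, the wall between its ventricles, of 27 sheep fetuses with 1 Agilent array each. Ewes were infused with cortisol at 1 mg/kg/day or with vehicle. Cortisol 140 d (n = 7) and control 140 d (n = 8) fetuses were collected at 139 to 144 d of gestation, after about 25 d of infusion. Cortisol 130 d (n = 6) and control 130 d (n = 6) fetuses were collected at 129 to 131 d, after about 10 d of infusion by one label, while another label dates the start to about 115 d for every ewe. The ewe and not the fetus was infused, so the dose that reached the fetus is not given. The 8 older controls came from 7 ewes, with the twins not identified. The older and younger fetuses were separate cohorts infused for different times, and between them age, cohort and infusion time cannot be told apart.

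Neutrophils are white cells of the blood that carry ready-made antimicrobial proteins in granules that they release at sites of infection or injury. Cathelicidins are made in the neutrophil precursor as a larger protein, stored in granules, and cut on release to free a short antimicrobial peptide. Ruminants carry a whole family of cathelicidin genes side by side, while humans have a single one. Lactoferrin binds iron and so keeps it from bacteria. CHI3L1 is a secreted protein related to chitinases that has lost their enzyme activity, and in humans it is made by macrophages and also stored in neutrophil granules. PI3, or elafin, inhibits neutrophil elastase and is known in humans mainly from epithelia. Heart tissue contains blood, so RNA of the septum includes RNA of blood cells.

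The scanner files use older names for 4 of the genes: DODE for CATHL1B, BAC7.5 for CATHL3, LOC554321 for lactoferrin and TOM for PI3. Stretches of the 60-base probes are shown because they say how far the probes could tell the family members apart. For the cathelicidins 30 bases around a run of aataaa are printed, with that run in capitals. BAC5 and SC5 are the other cathelicidins found on the array under the symbols used here.
CATHL1B: ctggatctgaaaAATAAActcttgtgacat
CATHL3: tggacggtgaaaAATAAAttctggtgaaga
BAC5: agtcagcatccaaaaAATAAAatcttgtgg
SC5: tggactctgagaAATAAAttcttgtgagaa
These 4 stretches look alike around the capitals, a hexamer known as the usual polyadenylation signal of animal transcripts. Over their best local alignment the CATHL1B and CATHL3 probes had 40 identical bases of 55, and their longest shared run was 11 bases. CATHL3 and SC5 had 33 identical bases of 39, with a longest run of 12 bases. No probe of another gene on the array shared a run of 20 bases with any of the 7 probes. Cross-hybridization between family members was not tested. The 2 CATHL1B probes share 59 of their 60 bases, so they are a repeat of 1 measurement and not separate evidence.

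The probes of the other 3 genes are printed whole, since they show that lactoferrin and CHI3L1 have no such resemblance and that the PI3 probes lie in a repeat.
LTF: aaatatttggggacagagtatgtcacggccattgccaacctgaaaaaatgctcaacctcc
CHI3L1: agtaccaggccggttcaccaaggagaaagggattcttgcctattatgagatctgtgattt
PI3 probe 1: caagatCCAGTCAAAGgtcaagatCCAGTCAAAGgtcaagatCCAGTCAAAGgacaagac
PI3 probe 2: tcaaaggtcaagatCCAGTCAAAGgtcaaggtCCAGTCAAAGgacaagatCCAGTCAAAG
The capitals mark a 10-base unit that occurs 3 times in each PI3 probe at a spacing of 18 bases. The PI3 probes share a run of 30 bases and are again not separate evidence. In the RefSeq gene order of the sheep assembly ARS-UI_Ramb_v3.0, CATHL3 and BAC5 are direct neighbours. There are 2 genes between CATHL1B and CATHL3, and 1 gene between BAC5 and SC5. LTF is on the same chromosome, with 40 genes between it and SC5. PI3 sits between WFDC5 and WFDC12, which belong to the same whey acidic protein family.

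Levels below are log2 of the background-subtracted intensity relative to the 75th percentile of the same array, so 0 is the level of a probe at that percentile and a difference of 1 is a 2-fold difference. A level is never set against that of another probe. A probe is called well above background where the scanner software flagged it so. The 75th percentile lay between 602 and 1273 intensity units, and 77.0% to 87.0% of the spots of an array were well above background. No spot was saturated. Cortisol 140 d replicate 4 stood apart: its mean correlation with its own group was 0.955, the lowest of the 27 arrays, and its 75th percentile was the lowest too. It had the highest level of the 27 arrays for 7 of 7 probes described here, and for 15.7% of all tested probes. The differences between groups that hold this array are given with and without it. MB, the muscle oxygen carrier myoglobin, was the 1 of 15 cardiomyocyte markers found on the array under the symbols used here. It was far above the 75th percentile on every array. Its level was 182 to 456 times that percentile in cortisol 140 d fetuses and 253 to 430 times in control 140 d. The younger groups had 236 to 325 times with cortisol and 227 to 315 times in controls. The lowest MB level was that of cortisol 140 d replicate 4.

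CATHL1B and CATHL3 were detected in every fetal septum: their probes were well above background on 27 of 27 arrays. They varied far more between fetuses than most genes. The first CATHL1B probe spanned a 109-fold range over the 27 fetuses and CATHL3 a 220-fold range, and without cortisol 140 d replicate 4 the ranges were 85.4-fold and 104-fold. At the low end were control 140 d replicates 1 and 2, with intensities of 39.8 and 29.8 for CATHL1B and 19.1 and 19.3 for CATHL3. These are dim signals, so the low end of both ranges is less certain. The residual SD within groups was 1.45 for CATHL1B and 1.68 for CATHL3 on the log2 scale, against a median of 0.290 over all tested probes. Without cortisol 140 d replicate 4 the values were 1.34 and 1.56, against a median of 0.265. Of all tested probes, 99.4% had a smaller residual SD than CATHL1B and 99.7% a smaller one than CATHL3 with all arrays, and 99.3% and 99.6% without it. Since the genes were picked with such values known, this is a description.

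CATHL1B, the gene of the cyclic dodecapeptide, had levels of -2.89 at the lowest, -0.50 at the median and 2.01 at the highest in cortisol 140 d septum. Control 140 d fetuses had -4.75, -1.77 and -0.046 on the same measures. Cortisol 130 d fetuses had -1.89, -0.42 and 1.22, and control 130 d fetuses -1.14, 0.91 and 1.66. The 4 groups overlapped. Control 140 d replicates 1 and 2, at -4.42 and -4.75, were the lowest of all fetuses, and without them the older controls ran only as low as -2.03. The highest value of the older cortisol group was that of replicate 4, and without it the highest was 0.24.

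CATHL3, the gene of the proline-rich peptide called Bac7, followed the same order of fetuses closely. Its level ran from -3.36 over a median of -0.75 to 2.30 in cortisol 140 d fetuses. In control 140 d fetuses the lowest, median and highest were -5.48, -1.48 and -0.074. The younger groups had -1.87, -0.63 and 1.22 with cortisol, against -1.49, 0.59 and 1.104 in controls. Control 140 d replicates 1 and 2 were again far below the rest, at -5.48 and -5.38, and the next lowest of that group was at -1.89. Cortisol 140 d replicate 4 again had the highest level, and without it the group ran up to 0.45.

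**Figure D1:**
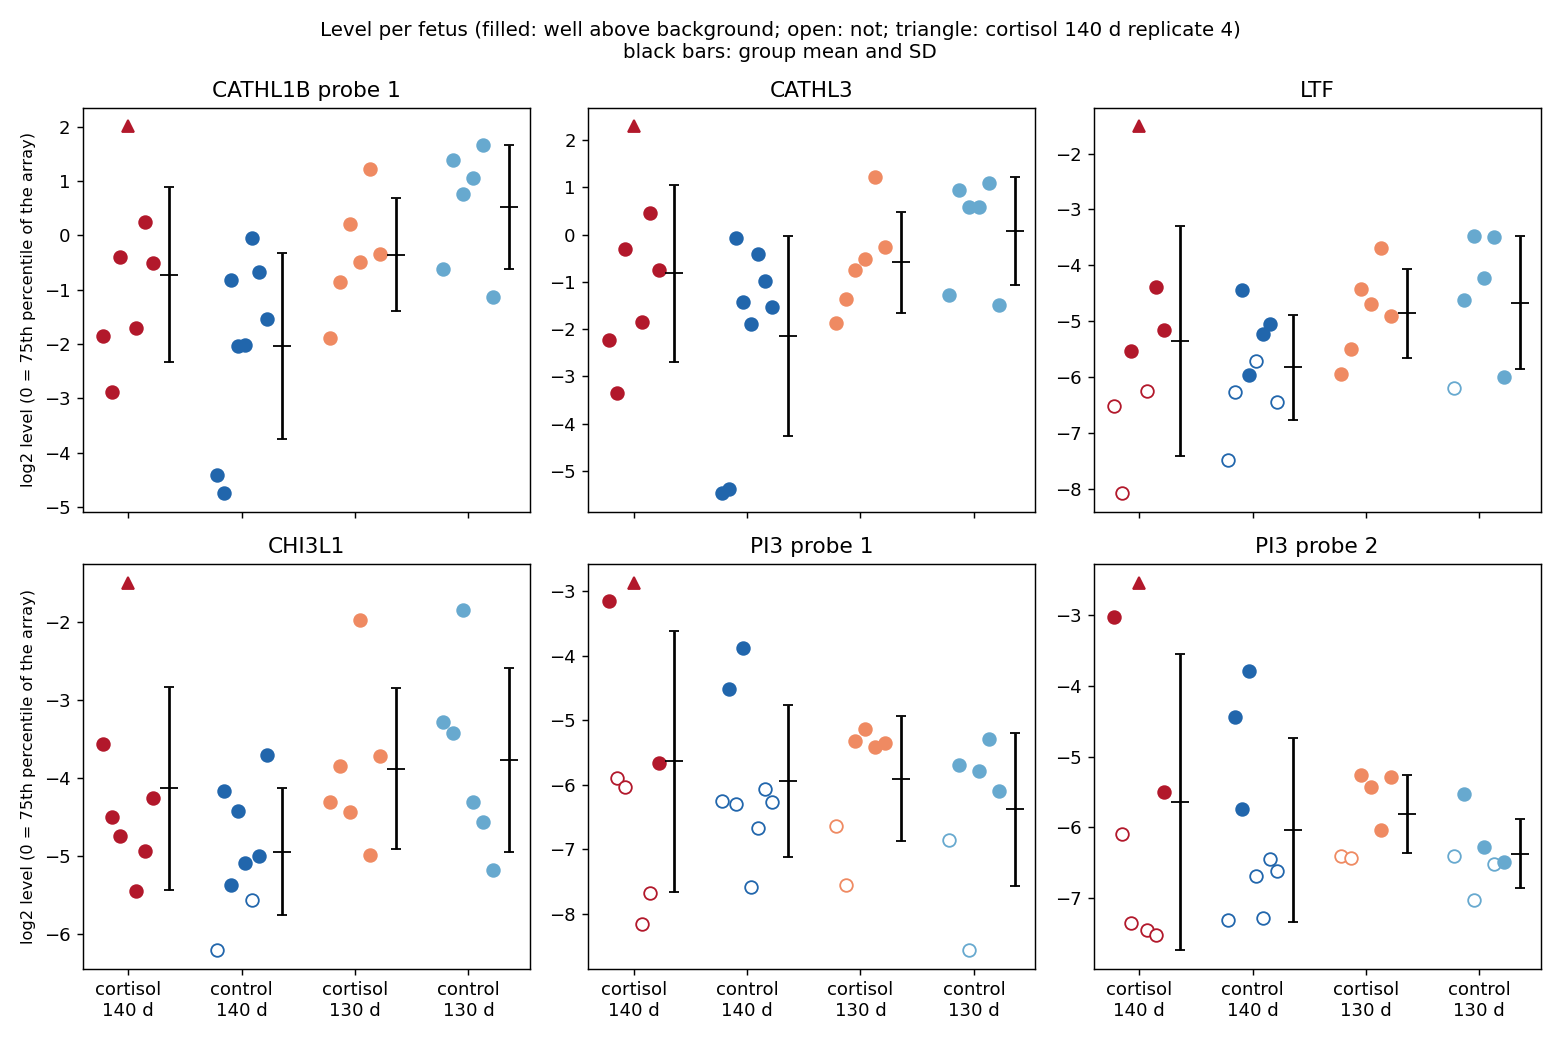
Each point is 1 fetus, with the log2 level relative to the array's 75th percentile on the vertical axis and the 4 groups on the horizontal axis; black bars are the group mean and SD (n = 7, 8, 6 and 6 from left to right). The triangle, cortisol 140 d replicate 4, is the highest point in every panel, and control 140 d replicates 1 and 2 lie at -4.42 and -4.75 for CATHL1B.

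Lactoferrin, LTF, gave a dim signal that was well above background in 4 of 7 cortisol 140 d fetuses, 4 of 8 control 140 d, 6 of 6 cortisol 130 d and 5 of 6 control 130 d fetuses. The lowest, median and highest levels were -8.09, -5.53 and -1.50 in cortisol 140 d septum and -7.49, -5.84 and -4.44 in control 140 d septum. They were -5.94, -4.80 and -3.69 in cortisol 130 d septum and -6.20, -4.42 and -3.48 in control 130 d septum. The groups overlapped, and the value of -1.50 came from cortisol 140 d replicate 4, with -4.39 the next highest of its group. Levels of arrays on which the probe was not well above background are uncertain, so the low end of the 96.0-fold range of LTF is too. The high end was that of replicate 4 alone, and without it the range was 24.4-fold.

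CHI3L1 was well above background on 25 of 27 arrays, with both exceptions among the 8 control 140 d arrays. Its lowest, median and highest levels were -5.45, -4.50 and -1.49 in cortisol 140 d fetuses, against -6.21, -5.05 and -3.71 in control 140 d fetuses. In the younger cohort they were -4.99, -4.08 and -1.97 with cortisol and -5.19, -3.87 and -1.84 in controls. High fetuses occurred singly in 3 of the groups: cortisol 140 d replicate 4 at -1.49, cortisol 130 d replicate 4 at -1.97 and control 130 d replicate 3 at -1.84. The range over the 27 fetuses was 26.4-fold, and 20.7-fold without cortisol 140 d replicate 4, in both cases the narrowest of the 5 genes.

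PI3, the elastase inhibitor, was near the limit of detection. Epithelial markers were not analysed here. Its first probe was well above background in 3 of 7 cortisol 140 d fetuses, 2 of 8 control 140 d, 4 of 6 cortisol 130 d and 4 of 6 control 130 d fetuses. The lowest, median and highest levels of that probe were -8.16, -5.90 and -2.87 in cortisol 140 d septum and -7.58, -6.26 and -3.88 in control 140 d septum. They were -7.55, -5.38 and -5.14 in cortisol 130 d septum and -8.56, -5.94 and -5.29 in control 130 d septum. Few fetuses, all of the older cohort, stood above the others: cortisol 140 d replicates 4 and 1, at -2.87 and -3.16, and control 140 d replicates 4 and 2, at -3.88 and -4.52. The second probe ranked the same 4 fetuses highest, with -2.54 and -3.03 in the cortisol fetuses against -3.796 and -4.44 in the controls.

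By group mean with all arrays, CATHL1B, CATHL3, LTF and CHI3L1 fell into the same order, with control 130 d highest, then cortisol 130 d, then cortisol 140 d, and control 140 d lowest. CATHL1B averaged -0.73 ± 1.61 in cortisol 140 d (SD, n = 7), -2.04 ± 1.72 in control 140 d (n = 8), -0.36 ± 1.04 in cortisol 130 d (n = 6) and 0.51 ± 1.14 in control 130 d fetuses (n = 6). Each gap between neighbours in the order was smaller than the SD of either group, for every one of the 7 probes. Without cortisol 140 d replicate 4 the order changed for LTF, whose mean was -5.99 in cortisol 140 d and -5.83 in control 140 d fetuses. PI3 had another order with all arrays, with cortisol 140 d highest and control 130 d lowest, and gaps of at most 0.44 between neighbours for its first probe and 0.33 for its second. Without that array cortisol 140 d fetuses were not the highest for PI3, with means of -6.10 and -6.16 for its probes, against -5.94 and -6.04 in control 140 d fetuses. CATHL1B, CATHL3 and LTF varied together, so their shared order is not 3 separate observations.

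CATHL1B, CATHL3 and LTF varied together from fetus to fetus. Over the 27 arrays Pearson's r between the first CATHL1B probe and CATHL3 was 0.973 and Spearman's rho 0.952. Without cortisol 140 d replicate 4 r was 0.970, and without the 2 fetuses farthest from the median CATHL1B level it was 0.955. The correlation of deviations from the group means was 0.974, so it did not rest on differences between the groups. Within single groups it was 0.998 in cortisol 140 d, 0.971 in control 140 d, 0.924 in cortisol 130 d and 0.990 in control 130 d fetuses. The difference between the 2 genes had an SD of 0.42 over the arrays, while CATHL1B had an SD of 1.66 and CATHL3 of 1.79.

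LTF, although its probe has no sequence likeness to the cathelicidin probes beyond a run of 8 bases, had an r of 0.846 with CATHL1B and a rho of 0.883. Without replicate 4 of cortisol 140 d r was 0.842, and without the 2 farthest fetuses 0.890. With CATHL3 its r was 0.857. Within groups the r of LTF with CATHL1B was 0.985 in cortisol 140 d, 0.771 in control 140 d, 0.976 in cortisol 130 d and 0.864 in control 130 d fetuses. All such correlations share the array: both values of a point come from 1 hybridization and 1 scaling factor. CATHL1B had an r of 0.19 with log2 of the 75th percentile and of 0.27 with the share of spots well above background.

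CHI3L1 and PI3 did not follow the cathelicidins as closely. CHI3L1 had an r of 0.381 with CATHL1B, and of 0.266 without cortisol 140 d replicate 4. Its rho with CATHL1B was 0.255. PI3 probe 1 had an r of 0.031 with CATHL1B, and of -0.143 without that array. CHI3L1 and the second PI3 probe had an r of 0.502, and of 0.330 without it. The difference between these correlations was not tested. The 2 PI3 probes had an r of 0.874 with each other.

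**Figure D2:**
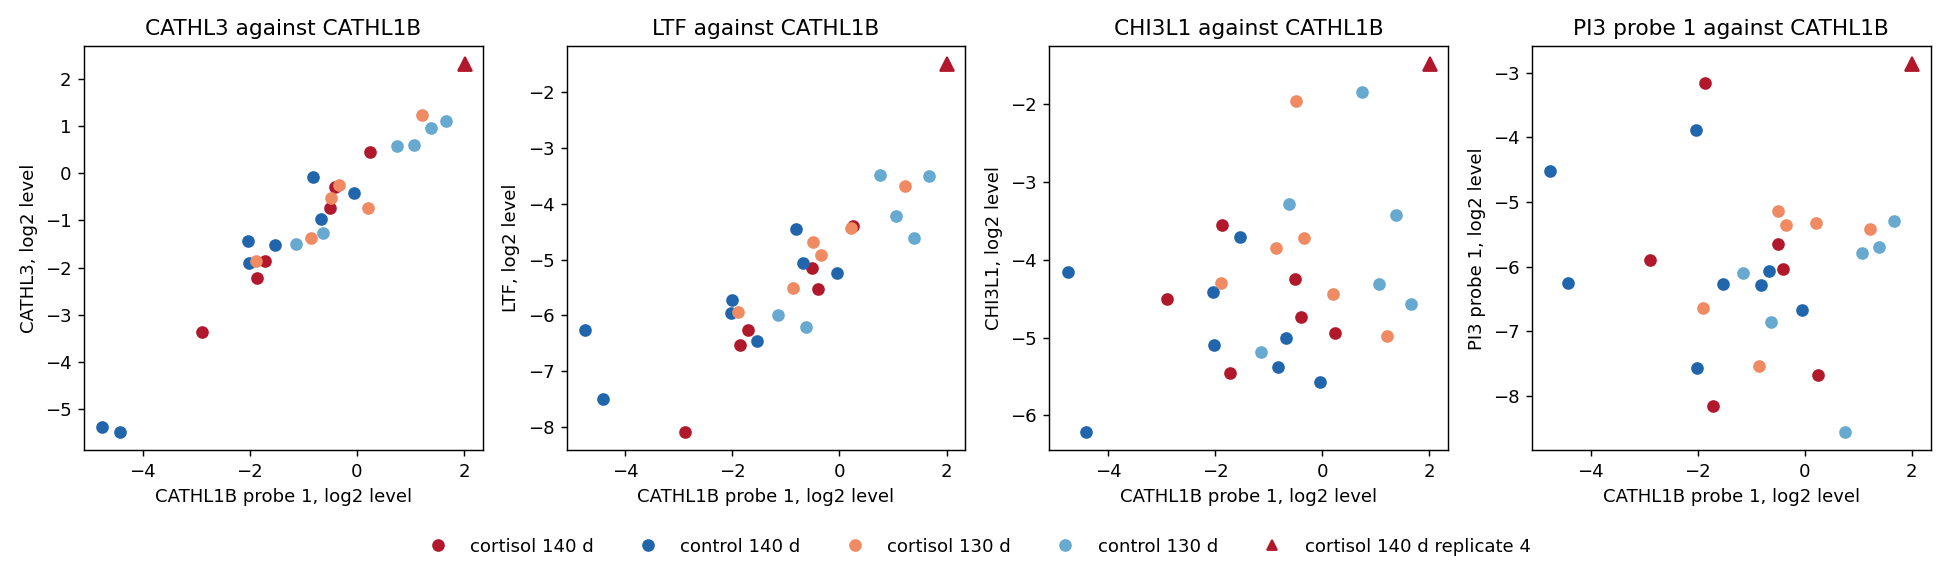
Each point is 1 fetus, with the log2 level of the first CATHL1B probe on the horizontal axis and that of CATHL3, LTF, CHI3L1 or PI3 on the vertical axis, colours give the group and the triangle is cortisol 140 d replicate 4. CATHL3 (r = 0.973) and LTF (r = 0.846) lie along a line, and CHI3L1 (r = 0.381) and PI3 (r = 0.031) scatter.

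Outside the 5 genes, the named gene most like CATHL1B over the 27 arrays was BAC5, the cathelicidin of the proline-rich peptide Bac5, with an r of 0.982, and the next was the cathelicidin SC5 with 0.829. For CATHL3 the same genes led outside the 5, with an r of 0.989 for BAC5 and 0.833 for SC5. The named genes outside the 5 most like LTF were BAC5 too, at 0.843, and then SC5, at 0.796. A probe of LYZ, the lysozyme of neutrophil and macrophage granules, came next for both CATHL1B, at 0.779, and CATHL3, at 0.752. The interferon-induced RTP4 and the transcription factor BHLHE40 completed the first 5 for CATHL1B, at 0.738 and 0.727. Of the 12777 other tested probes, 4 had an r over 0.9 with CATHL1B: its own second probe, the CATHL3 probe and both BAC5 probes. Without cortisol 140 d replicate 4, BAC5 and SC5 stayed first for CATHL1B, CATHL3 and LTF among named genes outside the 5. BAC5 then had 0.980 for CATHL1B, 0.989 for CATHL3 and 0.847 for LTF.

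CHI3L1 kept other company. Among named genes outside the 5, the complement component C3 was most like it, with an r of 0.851, or 0.801 without cortisol 140 d replicate 4. Of the 12777 other tested probes, named or not, 8 had an r over 0.8 with CHI3L1. IRF3, a transcription factor of the interferon response, was the next named gene at 0.749. FCER1G, a signalling chain of Fc receptors on myeloid cells, followed at 0.729. IGF1, a growth factor, and CD86, a costimulatory protein of antigen-presenting cells, had 0.713 and 0.707. None of FCER1G, IGF1 and CD86 was among the first 5 without that array. Among named genes PI3 was most like TF, transferrin by its symbol here, with an r of 0.690 for its first probe and 0.809 for its second. DIRAS3, a small GTPase, was next at 0.631 and 0.664. Both PI3 values for TF were lower without cortisol 140 d replicate 4, at 0.583 and 0.719.

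Neutrophil genes outside this set were few on the array under the symbols used here. Of 19 other granule genes MMP9 and LYZ were on it, and of 15 surface and signalling genes ITGAM, ITGB2, CYBB and PTAFR were. The classical granule enzymes MPO and ELANE were not analysed here. Over 27 arrays CATHL1B had an r of 0.673 with ITGB2, the beta chain of leukocyte integrins, and of 0.375 with MMP9, a protease of neutrophil granules. With ITGAM, the integrin chain of neutrophils and macrophages, r was only 0.057. CYBB, a subunit of the oxidase that makes superoxide in phagocytes, had 0.197 with CATHL1B and 0.626 with CHI3L1. Without the 2 fetuses farthest from the median level of CATHL1B or CHI3L1, these were 0.413 and 0.355. For FCER1G the r was 0.669 with CATHL1B, and for CD14, a surface protein of monocytes and macrophages, it was 0.256 with all arrays. The r of CD14 depended on the arrays left out. It was 0.00047 without cortisol 140 d replicate 4, and 0.540 without the 2 fetuses farthest from the median CATHL1B level. Red cell genes also moved with the cathelicidins: r with CATHL1B was 0.635 for HBB, a beta globin, and 0.579 for AHSP, the chaperone of alpha globin. So did the lymphocyte markers CD3E, at 0.508, and CD3D, at 0.428. For deviations from the group means r was 0.477 for HBB, 0.334 for AHSP, 0.486 for CD3E and 0.400 for CD3D. The part of the amount of blood in the samples was not tested.

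**Figure D3:**
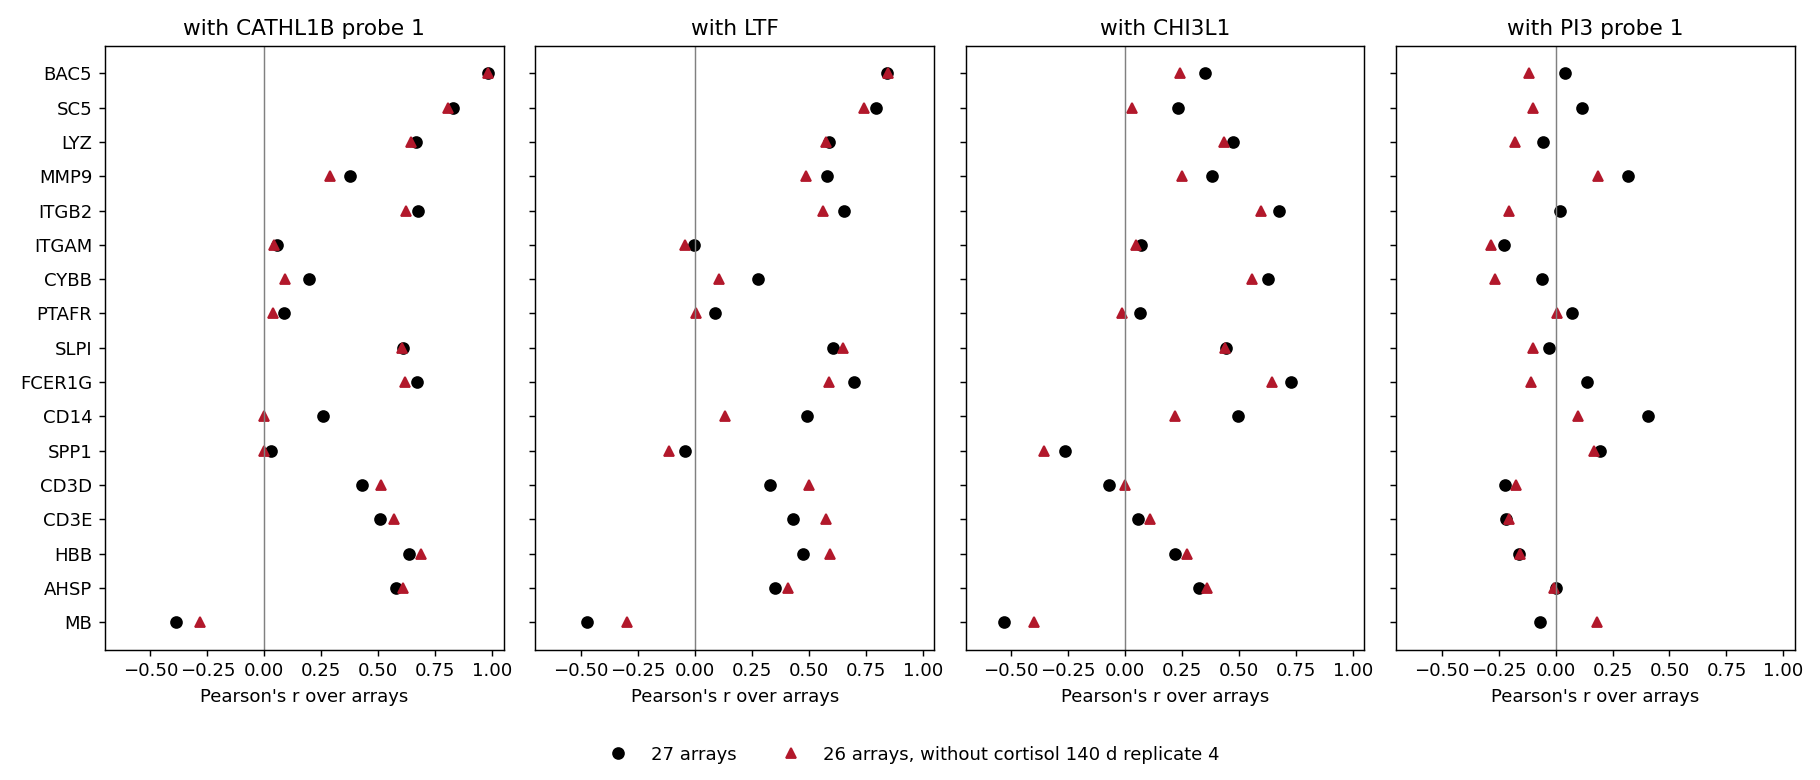
Pearson's r over the arrays (horizontal axis) of named marker genes (rows) with CATHL1B, LTF, CHI3L1 and PI3, for 27 arrays (black circles) and for 26 arrays without cortisol 140 d replicate 4 (red triangles). BAC5 and SC5 are at the right for CATHL1B (0.982 and 0.829) and LTF, while for CHI3L1 FCER1G (0.729) is farther right than either.

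Whether the cortisol infusion changed these genes at 130 d is the comparison that was tested. No change was called: of the 12778 tested probes 0 passed a Benjamini-Hochberg adjusted p of 0.05 in limma, which is a percent called of 0, and 455 had an unadjusted p under 0.05. CATHL1B was lower in cortisol than in control fetuses by a log2 difference of -0.87 ± 0.79 (SE, n = 6 each), with 1 of 6 cortisol fetuses above the control mean, and did not pass the test (limma adjusted p = 0.999965). The second CATHL1B probe gave -0.69 ± 0.82 and CATHL3 gave -0.67 ± 0.91, with the same adjusted p. Both were smaller than their standard errors, as were the differences of the other genes. LTF had -0.19 ± 0.74, CHI3L1 -0.11 ± 0.60, and PI3 0.48 ± 0.77 and 0.57 ± 0.73 for its probes. The 95% confidence interval of the difference ran from -2.50 to 0.75 for CATHL1B, from -2.55 to 1.21 for CATHL3, from -1.71 to 1.33 for LTF, from -1.33 to 1.12 for CHI3L1 and from -1.11 to 2.07 for the first PI3 probe. Changes of more than 2-fold thus lie inside the interval of every gene, and no change was shown to be absent. Within slides, CATHL1B differed by -1.76 on slide 2, -1.05 on slide 3 and 0.18 on slide 4. The sign turned for LTF, to 0.048, and for CHI3L1, to 0.28, when control 130 d replicate 3 was left out. The median of the 7 probes was -0.19, beside 0.011 over all tested probes.

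At 140 d cortisol fetuses had higher group means than controls for all 7 probes, but the gaps rested partly on cortisol 140 d replicate 4. Those of CATHL1B and CATHL3 rested also on control 140 d replicates 1 and 2. These lay at -4.42 and -4.75 for CATHL1B and at -5.48 and -5.38 for CATHL3. No fit left out both of these controls, so the differences below all hold at least 1 of them. The log2 difference was 1.31 ± 0.71 for CATHL1B (SE, n = 7 and 8), and 0.85 ± 0.68 without cortisol 140 d replicate 4. CATHL3 had 1.33 ± 0.82, and 0.81 ± 0.80 without it. LTF had 0.48 ± 0.66 and turned to -0.16 ± 0.54. CHI3L1 had 0.81 ± 0.53, and 0.37 ± 0.48 without that array. PI3 had 0.30 ± 0.69 and 0.40 ± 0.65 for its probes, and -0.16 ± 0.67 and -0.11 ± 0.59 without it. The values of this array were known when the genes were picked, so they are described and not tested. The percent called over all tested probes was 0 here as well, with and without the array. Over all tested probes the median difference was -0.036, and over the 7 it was 0.81.

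Slides 2 to 5 each held both older groups. With all arrays CATHL1B was higher with cortisol on every one, by 2.94 on slide 2, 1.57 on slide 3, 2.26 on slide 4 and 0.25 on slide 5. Slide 2 holds control 140 d replicates 1 and 2, and slide 3 holds cortisol 140 d replicate 4. Without that array, a setting chosen after seeing the data, the slide 3 difference was -0.29 for CATHL1B, with 1 cortisol and 2 control fetuses. Slide 5, with 1 cortisol and 3 control fetuses, holds neither of them. The within-slide differences of CATHL3 were 3.60, 0.98, 2.34 and 0.23 in the same order of slides, and -1.10 on slide 3 without that array. Red cell markers lay to the same side: AHSP had a difference of 1.30 ± 0.68 and HBB of 0.60 ± 0.55, and without replicate 4 they had 1.20 and 0.58. The lymphocyte markers CD3D and CD3E had -0.33 ± 0.27 and -0.45 ± 0.37. The median difference of BAC5 and SC5 was 0.80, and 0.42 without replicate 4. For MMP9 and LYZ it was 0.18, and -0.048 without that array. The 4 neutrophil surface and signalling genes had a median of 0.27, and 0.14 without it. For CD14, FCER1G and SPP1 the median was 0.081, and -0.027 without it. The part of all these markers in the result was not tested.

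**Figure D4:**
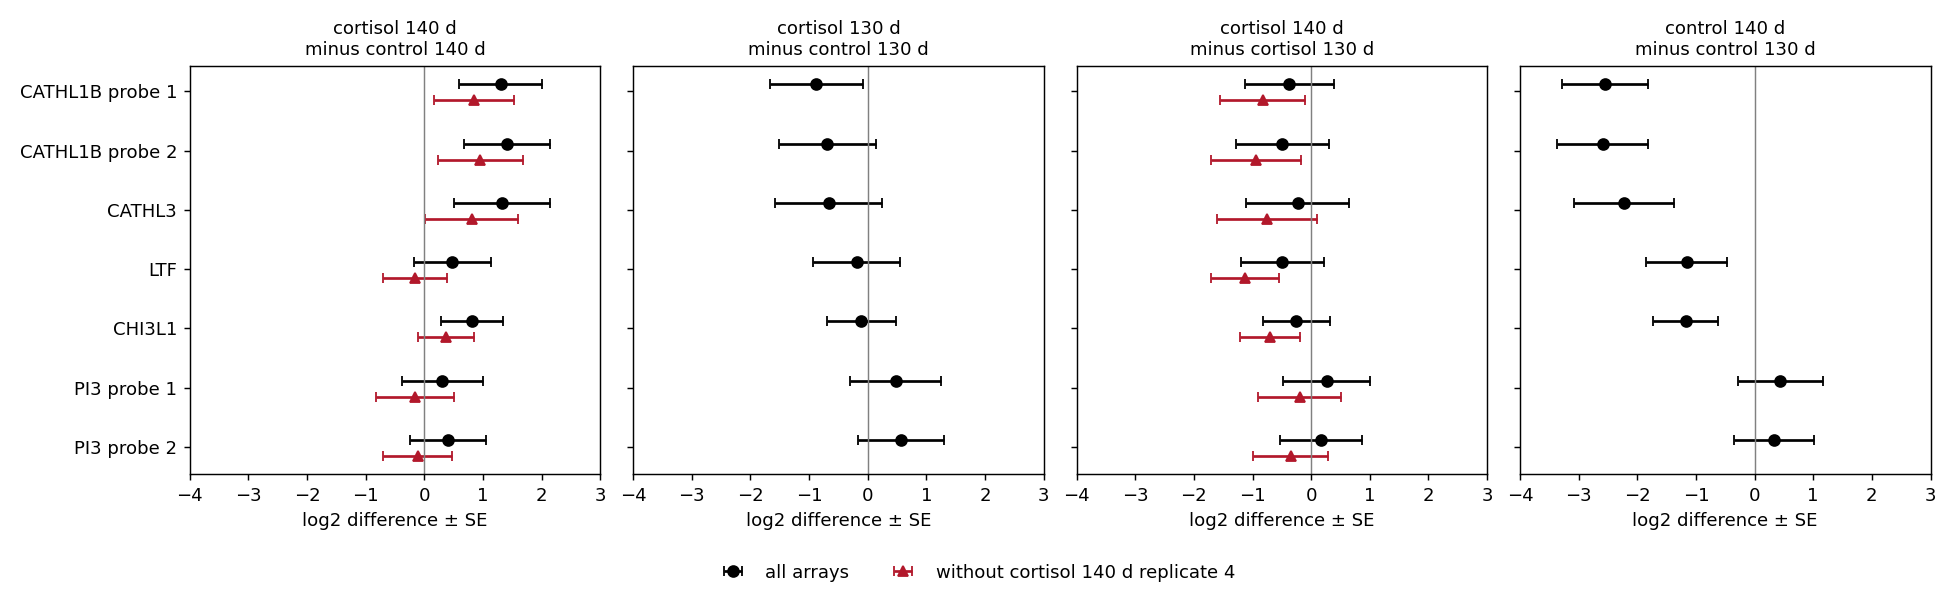
Log2 differences between groups with their SE (horizontal axis) for the 7 probes (rows) in 4 comparisons, with all arrays (black circles) and, where the comparison holds it, without cortisol 140 d replicate 4 (red triangles). In the right panel CATHL1B lies at -2.55 and PI3 probe 1 at 0.44, and in the left panel leaving out that array moves LTF across 0.

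The largest differences of the set were between control 140 d and control 130 d fetuses. CATHL1B, which had been named earlier for this very comparison, was lower at 140 d by a log2 difference of -2.55 ± 0.74 (SE, n = 8 and 6), which is 5.86-fold, with 0 of 8 older fetuses above the mean of the younger. The second probe gave -2.59 ± 0.77. CATHL3 had -2.23 ± 0.86, LTF -1.16 ± 0.69 and CHI3L1 -1.17 ± 0.56. PI3 ran the other way by less than its error, with 0.44 ± 0.72 and 0.33 ± 0.68. Both CATHL1B probes were called lower, and 0 of the other 5 probes were called in either direction. Over all tested probes the percent called was 19.1, made up of 9.77 called higher and 9.35 called lower. Nothing is read from the count, as CATHL1B was chosen on this contrast. When cortisol 140 d replicate 4 is left out of the shared estimate of spread, CATHL3 is called lower as well, and the percent called is 25.1, with 13.1 higher and 12 lower.

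Control 140 d replicates 1 and 2, the fetuses with little cathelicidin RNA, share slide 2. There CATHL1B differed by -4.96 between the older and younger controls, against -2.33 on slide 3 and -2.27 on slide 4. CATHL3 differed by -5.27, -1.34 and -1.70 on those slides, and LTF by -1.47, -1.35 and -0.97. Leaving out replicate 1 or 2 in turn left the CATHL1B difference no closer to 0 than -2.16. Each of these fits kept the other low fetus and none left out both, so they cannot show how much the pair carries. PI3 had no stable sign: its first probe differed by 0.89 on slide 2, 2.09 on slide 3 and -1.88 on slide 4.

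Markers of blood moved with this age difference in the controls. HBB had a log2 difference of -2.004 ± 0.58 and AHSP of -3.26 ± 0.70, and both were called lower at 140 d, 2 of the 2 red cell markers tested. The HBB level ran from 1.59 to 4.80 in control 140 d fetuses and from 4.05 to 5.81 in control 130 d fetuses. LYZ was called lower at -1.41 ± 0.41, ITGB2 at -1.02 ± 0.24 and FCER1G at -1.16 ± 0.31. SLPI, an elastase inhibitor of the same protein family as PI3, was called lower at -1.21 ± 0.35. MMP9, ITGAM, CYBB, PTAFR, CD14 and SPP1 were not called. BAC5 had -2.06 ± 0.78 and SC5 -0.71 ± 0.50, neither called with all arrays, while BAC5 was called lower without cortisol 140 d replicate 4. MB was called higher, by 0.48 ± 0.15. These are bulk samples, so fewer neutrophils in the septum, less RNA per neutrophil and less blood in the sample cannot be told apart, and the part of the blood markers in the cathelicidin difference was not tested.

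In the cortisol fetuses the age differences of CATHL1B, CATHL3, LTF and CHI3L1 were nearer 0 than in the controls with all arrays included. CATHL1B had a log2 difference of -0.37 ± 0.76 between cortisol 140 d and cortisol 130 d (SE, n = 7 and 6), and of -0.83 ± 0.73 without cortisol 140 d replicate 4. CATHL3 had -0.23 ± 0.88, and -0.75 ± 0.85 without it. LTF had -0.49 ± 0.71, which became -1.13 ± 0.58. CHI3L1 had -0.25 ± 0.57, and -0.70 ± 0.51 without the array. PI3 had 0.27 ± 0.75 and 0.17 ± 0.70 for its probes, which turned to -0.20 and -0.35. Of the 7 probes 0 were called, with and without the array, beside a percent called of 13.5 with it (4.94 higher and 8.52 lower) and 18.9 without it (8.51 higher and 10.4 lower). Within slides, CATHL1B differed by -0.27, 0.29 and -0.19 on slides 2, 3 and 4, and by -1.57 on slide 3 without replicate 4. AHSP had -1.92 ± 0.73 and HBB -1.35 ± 0.60 here, neither called.

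The difference between the cortisol effects at the 2 ages, the effect at 140 d minus that at 130 d, was 2.18 ± 1.06 for CATHL1B and 1.72 ± 1.00 without cortisol 140 d replicate 4. For CATHL3 it was 2.00 ± 1.23, and 1.48 ± 1.16 without it. LTF had 0.67 ± 0.99, and 0.029 ± 0.79 without it. CHI3L1 had 0.92 ± 0.80, and 0.48 ± 0.70 without it. PI3 had -0.17 ± 1.04 and -0.16 ± 0.98 for its probes, and -0.64 ± 0.97 and -0.68 ± 0.87 without it. Over all tested probes 0 were called for this difference, a percent called of 0, and 743 had an unadjusted p under 0.05. The age differences in the 2 arms and the cortisol differences at the 2 ages are built from the same 4 groups of fetuses, so they are not separate observations of the cathelicidins.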

How the data were processed

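RNA of heart septum from 27 sheep fetuses was hybridized to 1-colour Agilent arrays (Cy3). The deposited scanner files hold background-subtracted, detrended spot intensity, per the file headers, and come from Feature Extraction 10.1.1.1 of Agilent according to the submitters' processing notes. A deposited table by the authors holds log2 values, equal to log2 of that intensity minus 1 constant per array. What the constant was computed from is not given in the sources used here. Flags for spots well above background, saturated or outlying are also deposited.

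Levels are log2(intensity) minus the array's 75th percentile, without outlying spots, with spots of a probe averaged. A probe entered the test if 6 or more arrays had it well above background. Group means were fitted with limma 3.58.1 (lmFit, eBayes; R 4.3.3), 27 arrays in 1 fit, 2-sided, Benjamini-Hochberg adjusted over 12778 probes, threshold 0.05. Of these, 1056 had a symbol (698 symbols), from the files or RefSeq. The fit was tested on simulated data.

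The genes, marker lists and likeness measures were chosen with earlier results of these data known. Named besides the 5 genes are the marker list genes and the 5 named genes most like each. A gene with several probes is given by its brightest probe, except in the likeness ranking. Each slide was scanned once, so slide stands for slide and scan. Fetuses were treated as independent. Alternatives were normexp background correction, other scalings, filters, slide and replicate blocks, the deposited log2 table and leaving out each array. The number of arrays limits the precision.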

Additional observations from a re-analysis of the deposited data

How the results depend on the processing

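The call of both CATHL1B probes between control 140 d and control 130 d was lost with normexp background correction (offset 50), where the differences were -2.06 and -2.03, against -2.55 and -2.59, and 0 of the 7 probes were called. LTF had 0.026 there, against -1.16, and CHI3L1 -0.20, against -1.17. That correction also lowered the calls over all probes to 536, against 2443 with the processed intensity, in the controls, and to 339, against 1720, in the cortisol fetuses. The cause was not tested. Without single arrays, 1 to 3 of the 7 probes were called in the control age comparison, and the value of 1 came without control 130 d replicate 5. Under the other scalings, filters, slide blocks and the deposited log2 table the counts of called probes kept within 1.5 times the reported ones in all 5 comparisons. Of the 7 probes, only the CATHL1B and CATHL3 probes pass a filter of well above background on 27 arrays, so LTF, CHI3L1 and PI3 have no value there. At 130 d normexp turned the cortisol difference to 0.40 for LTF and 0.47 for CHI3L1. Without single arrays it ran from -0.50 to 0.048 for LTF, with the highest value without control 130 d replicate 3, and from -0.49 to 0.28 for CHI3L1, again highest without that array. Whether the replicate numbers of the labels pair the fetuses is not known here. The correlations of deviations between same-numbered fetuses ran from -0.17 to 0.36 and cannot decide it. With the replicate block the control age comparison had 3 of 7 probes called and the other comparisons 0. Over all tested probes that block gave 2494 calls for age in controls and 1789 in cortisol fetuses. For the difference of the cortisol effects it gave 1. Dim signals limit LTF and PI3, which were well above background on 19 and 13 of 27 arrays.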

Other observations

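Of 4 tested genes that draw or activate neutrophils, 3 had negative differences between control 140 d and control 130 d fetuses, with a median of -0.52. TNF, an inflammatory cytokine, was called lower at -1.50 ± 0.35 (SE, limma), and a probe annotated as CXCL1, a neutrophil chemokine, was called higher at 0.40 ± 0.09. The level of the CXCL1 probe lay between 7.31 and 8.25 on the 27 arrays, and its annotation was not checked. CXCL8, the main neutrophil chemokine of humans, had -0.61 ± 0.42 and IL1B, a cytokine of inflammation, -0.43 ± 0.19, neither called. In the cortisol fetuses TNF was called lower at -1.33 ± 0.36 and SLPI at -1.40 ± 0.36 between cortisol 140 d and cortisol 130 d, and the CXCL1 probe was called higher at 0.32 ± 0.09. Cortisol 140 d replicate 4 had a CXCL8 level of -0.45, against a mean of -3.90 ± 0.54 (SD, n = 6) in the other fetuses of its group, and the highest CXCL8 level of the 27. Of 12775 tested probes with a value on that array, 1368 lay over 1 log2 unit above the mean of the others and 844 over 1 below. Some myeloid markers were higher in it: FCER1G at 0.23, against -1.73 ± 0.22, and CD14 at -1.28, against -2.52 ± 0.12. ITGB2 was at -0.90, against -2.34 ± 0.29, and CYBB at -4.26, against -5.47 ± 0.25. Other myeloid markers stood out less. SPP1 was at -6.27, against -6.47 ± 0.63, ITGAM at -6.31, against -6.77 ± 1.00, and PTAFR at -4.21, against -4.75 ± 0.53. The same fetus had a level of CD3E, a chain of the T cell receptor complex, of -3.40, against -3.67 ± 0.91 in the others. Its HBB level of 3.74 was also within the spread of the others, 3.58 ± 1.73.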
